A study of Homo sapiens with 19 samples.

Results

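Translation elongation factors were followed through 6 transcripts of 4 genes in RNA-seq of MDA-MB-231 cells, an established line from a triple-negative breast cancer. The transcripts are ENST00000309268, ENST00000331523 and ENST00000316292 of EEF1A1, ENST00000236957 of EEF1B2, ENST00000329251 of EEF1G and ENST00000309311 of EEF2, which makes 6 of the 175775 transcripts listed in every library. They were chosen with their estimated reads in all 6 groups in view, to tell a change of the whole EEF1A1 gene from reads that moved between its transcripts. Their fold changes below are therefore descriptions, given with standard errors (SE) and without p-values.

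The siRNA experiment held cells transfected with siRNA against STAT3 (siSTAT3, n = 2), cells with siRNA against HMGN5 (siHMGN5, n = 2) and cells with control siRNA (NC, n = 4). The lentiviral experiment held STAT3 siRNA cells infected with HMGN5 lentivirus (siSTAT3_HMGN5, n = 3), STAT3 siRNA cells infected with empty vector (siSTAT3_Vec, n = 3) and control siRNA cells infected with empty vector (NC_Vec, n = 3). All 6 groups were the same line, grown in L15 medium with 10% serum and treated with 30 nM siRNA, so controls also carried a transfection, and every lentiviral library carried an infection as well. STAT3 is a transcription factor activated by cytokine signalling and HMGN5 is a nucleosome-binding protein. The comparisons ask what depletion of each did to the transcriptome, and what added HMGN5 did in cells depleted of STAT3. The labels do not say whether replicates were separate cultures, so the spread between libraries may be technical. Levels of STAT3, HMGN5 and the line's markers were not checked, because no source used here pairs their transcripts with gene names.

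During elongation, the GTPase eEF1A (EEF1A1) carries each aminoacyl-tRNA to the A site of the ribosome. The eEF1B complex, of which EEF1B2 is a catalytic subunit and EEF1G a structural one, exchanges the GDP on eEF1A for GTP. The GTPase eEF2 (EEF2) then moves the tRNAs and the mRNA along by a codon. These mRNAs are among the most abundant of growing cells, and they belong to the mRNAs that begin with a C followed by a run of pyrimidines, the 5' terminal oligopyrimidine motif through which mTOR signalling sets their translation.

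The start regions of the 4 genes are shown to let the first transcribed bases be compared for this feature, which not all of the windows held. Each run covers 40 bases before to 10 bases after the RefSeq start (GRCh38.p14), read 5' to 3' on the gene's strand. Capitals mark a TATAAA or TATATA that lies 40 to 16 bases before the start, and a run of at least 5 C or T that begins with C within 10 bases of the start. A shorter run of this kind just upstream of the second EEF1B2 start is left in lower case. Pyrimidine runs farther from the start, such as the long one upstream in EEF1G, are also left in lower case. All 4 genes matched a RefSeq entry, EEF1B2 with 2 starts.
EEF1A1 (chr6:73521023-73521072, minus strand): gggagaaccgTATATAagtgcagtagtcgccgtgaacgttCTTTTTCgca
EEF1B2, first start (chr2:206159569-206159618, plus strand): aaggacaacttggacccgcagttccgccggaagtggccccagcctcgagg
EEF1B2, second start (chr2:206159855-206159904, plus strand): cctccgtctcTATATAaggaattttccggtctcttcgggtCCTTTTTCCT
EEF1G (chr11:62573882-62573931, minus strand): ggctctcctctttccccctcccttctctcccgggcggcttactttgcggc
EEF2 (chr19:3985454-3985503, minus strand): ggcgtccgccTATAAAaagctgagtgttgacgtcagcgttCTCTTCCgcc
In EEF1A1, EEF2 and the second EEF1B2 start, the marked pyrimidine run began at the first transcribed base and the TATA match began 30 bases before it. Of 35116 RefSeq promoters, 4.07% had such a run at the first base. A TATA match on the gene's strand in the window from 40 to 16 bases before the start occurred in 3.1% (3.61% on either strand), and 29 promoters held both. The windows of EEF1G and of the first EEF1B2 start held no such run within 10 bases of the start and no TATA match. A match is a description of these letters only, and which start each measured transcript used was not examined.

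The deposited tables gave 19114033 to 19509422 estimated reads per library in the siRNA experiment and 22500086 to 23047081 in the lentiviral one. Levels are given as CPM (reads scaled to a common library size) after scaling by the trimmed mean of M-values (TMM) within each experiment, and as TPM, which corrects for length, where genes are set side by side. All 6 transcripts passed the low-count filter in both experiments, which left 74346 and 69768 tested transcripts. The 4 NC libraries fell into pairs, which the labels do not explain: the libraries of replicates 3 and 4 did not overlap those of replicates 1 and 2 for 47.7% of tested transcripts, and for 5 of the 6 elongation factor transcripts. Each group's RNA came from bulk cells, in which fewer cells of a kind and less RNA per cell cannot be told apart.

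Of the 4 genes, EEF1A1, summed over its 3 listed transcripts, had the widest range of group means. In the lentiviral experiment this sum was 2.003-fold higher in siSTAT3_Vec than in NC_Vec, and 2.62-fold lower in siSTAT3_HMGN5 than in siSTAT3_Vec. In the siRNA experiment it was 1.395-fold lower in siHMGN5 than in NC, and its siSTAT3 libraries overlapped those of NC in CPM but lay below them in TPM. The sum covers the 3 listed transcripts alone, and reads on other EEF1A1 transcripts or processed copies, if listed, are not in it. The lentiviral differences did not hold once 2 abundant transcripts without a gene name, picked after the values were seen, were added. The log2 fold changes were then 0.21 for siSTAT3_Vec against NC_Vec and 0.14 for siSTAT3_HMGN5 against siSTAT3_Vec, the latter of the other sign.

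Summed EEF1A1 stood at 1097, 924.9 and 1040 CPM in siSTAT3_HMGN5, at 2841, 2617 and 2550.2 CPM in siSTAT3_Vec, and at 1441, 1265 and 1292 CPM in NC_Vec. The 3 groups did not overlap: siSTAT3_Vec was highest and siSTAT3_HMGN5 lowest. The log2 fold change was 1.002 ± 0.08 (SE) for siSTAT3_Vec against NC_Vec, -1.39 ± 0.08 for siSTAT3_HMGN5 against siSTAT3_Vec and -0.38 ± 0.08 for siSTAT3_HMGN5 against NC_Vec. These 3 comparisons share libraries, so they are not independent of each other.

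Nearly all of this sum lay on ENST00000309268, the 2303-base transcript. Its share of the listed EEF1A1 reads was 92.3 ± 2.74% in siSTAT3_HMGN5, 98.6 ± 0.124% in siSTAT3_Vec and 98.4 ± 0.82% in NC_Vec (SD, n = 3 each). ENST00000309268 had 980.6, 877.1 and 963.2 CPM in siSTAT3_HMGN5, 2802, 2576 and 2517 CPM in siSTAT3_Vec, and 1410.5, 1257 and 1267 CPM in NC_Vec. No library of a group entered the range of another group. The difference between siSTAT3_Vec and NC_Vec came to 30388 estimated reads per library. In CPM by library totals alone, it ranked 5 among the positive differences of all 175775 transcripts. Between siSTAT3_HMGN5 and siSTAT3_Vec the mean of ENST00000309268 differed by -38416 reads, and only 1 transcript had a larger negative difference in CPM by library totals.

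**Figure D1:**
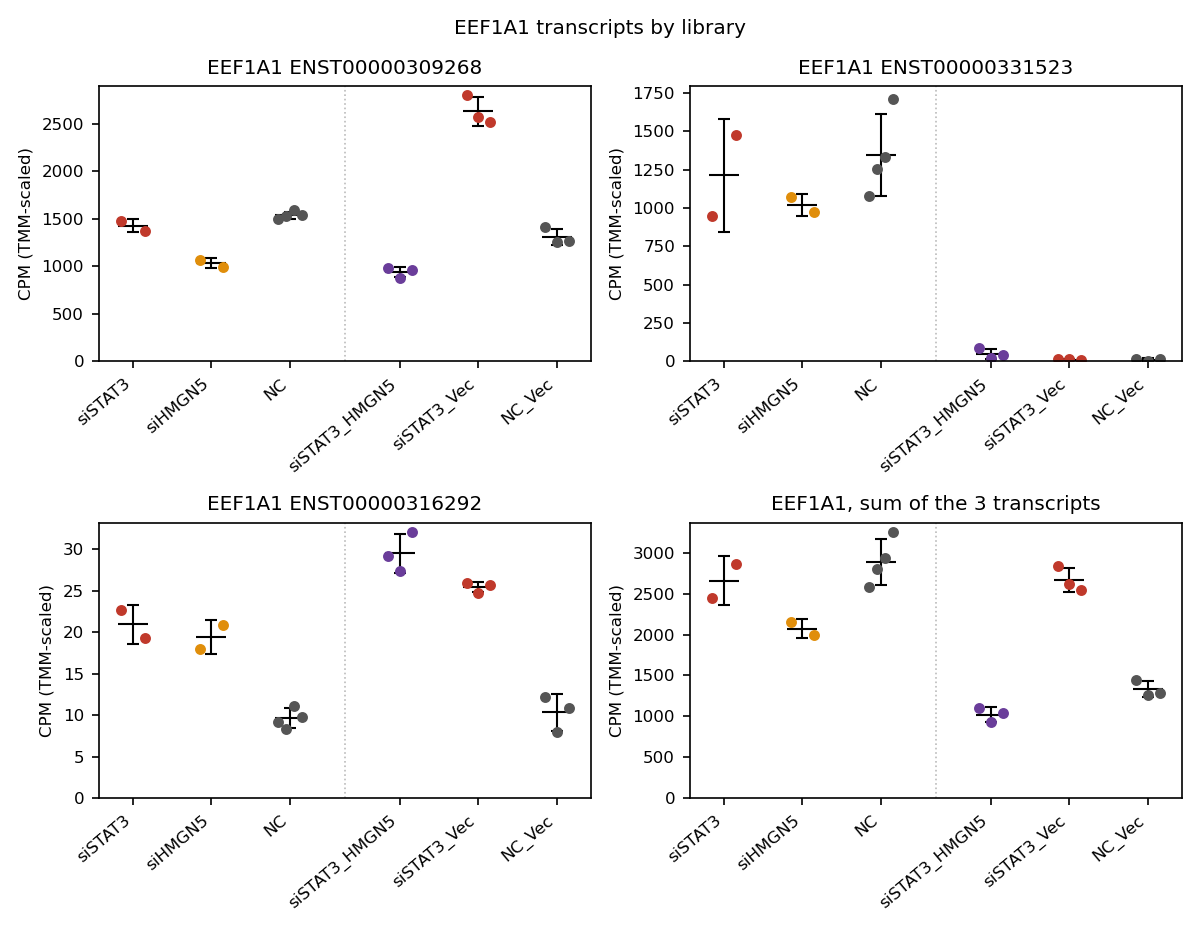
EEF1A1 in each library, in TMM-scaled CPM, for the 3 listed transcripts and their sum; points are libraries, horizontal bars the group mean and whiskers 1 SD, and the dotted line parts the siRNA experiment on the left from the lentiviral one on the right. ENST00000309268 is highest in the 3 siSTAT3_Vec libraries, and ENST00000331523 is at 87.2 CPM or below in all 9 lentiviral libraries.

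ENST00000331523, the 1923-base transcript, separated the 2 experiments. It had 952 and 1474 CPM in siSTAT3, 1071 and 972 CPM in siHMGN5, and 1078, 1258, 1336 and 1711 CPM in NC. In the lentiviral experiment it had 87.2, 20.4 and 44.4 CPM in siSTAT3_HMGN5, 13.0, 15.8 and 7.82 CPM in siSTAT3_Vec, and 18.7 and 13.97 CPM in NC_Vec replicates 1 and 3, while NC_Vec replicate 2 was listed at 0. As a percentage of library reads, the median lentiviral library had 0.0134 times the level of the median siRNA library, against 0.867 times for ENST00000309268. Experiment and infection cannot be told apart here, since all infected libraries belong to 1 experiment. In CPM by library totals, NC_Vec minus NC was -1318 for this transcript. It was 2559 for ENST00000490569 and 2289 for ENST00000436459, the largest positive differences of all transcripts, and a link between these differences was not tested. With so few reads and a library at 0, the fitted fold changes of ENST00000331523 between the lentiviral groups had SEs of 1.26 to 1.30 in log2 and are not read here.

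Within the siRNA experiment this transcript took 45.1 ± 8.83% of the listed EEF1A1 reads in siSTAT3 (SD, n = 2), 49.2 ± 0.554% in siHMGN5 (n = 2) and 46.2 ± 4.56% in NC (n = 4). The shares of the groups overlapped. The share on ENST00000309268 was 60.2% and 48.0% in the 2 siSTAT3 libraries, so those 2 libraries differed from each other by more than the group means did. Without siSTAT3 replicate 1 the difference in this share between siSTAT3 and NC was -5.52 percentage points, and without replicate 2 it was 6.71, against 0.596 with both. The log2 fold change of ENST00000331523 in siSTAT3 against NC was -0.15 ± 0.23, with -0.50 without siSTAT3 replicate 2 and 0.13 without siSTAT3 replicate 1. Against NC replicates 1 and 2 alone it was 0.05, and against replicates 3 and 4 alone -0.35, so its sign rested on which libraries were used.

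In siHMGN5, both major EEF1A1 transcripts were below every NC library. ENST00000309268 had 1070.4 and 999.0 CPM in siHMGN5, against 1498, 1535, 1590 and 1536 CPM in NC, a log2 fold change of -0.57 ± 0.06. ENST00000331523 differed by -0.40 ± 0.23, with its higher siHMGN5 library at 1071 CPM and its lowest NC library at 1078 CPM. Their sum was 2159 and 1992 CPM in siHMGN5 and 2586, 2802, 2936 and 3257 CPM in NC (log2 fold change -0.48 ± 0.12). Against NC replicates 1 and 2 alone the sum differed by -0.38, and against replicates 3 and 4 alone by -0.58. For ENST00000331523 those values were -0.19 and -0.58. The share of the listed reads on ENST00000309268 was 49.9 ± 0.404% in siHMGN5 and 53.5 ± 4.54% in NC, so the difference lay in the level of both transcripts more than in the division between them.

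In siSTAT3, ENST00000309268 had 1475 and 1378 CPM, just below the lowest NC library at 1498 CPM, with a log2 fold change of -0.11 ± 0.06. Summed EEF1A1 had 2450 and 2871 CPM in siSTAT3, which lay inside or below the NC range of 2586 to 3257 CPM, and its log2 fold change was -0.12 ± 0.11. It was -0.02 against NC replicates 1 and 2 alone and -0.24 against replicates 3 and 4 alone. On the TPM scale the same sum had 624 and 731 TPM in siSTAT3 and 781 to 968 TPM in NC, without overlap, a difference of -0.34 in log2. Transcripts under 300 bases took 43.6% to 43.8% of TPM in siSTAT3 and 38.8% to 41.0% in NC, and their part in this gap was not tested. Directly against siHMGN5, siSTAT3 had the higher ENST00000309268, by 0.46 ± 0.07 in log2, without overlap.

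ENST00000316292, the 4441-base transcript, was a minor species and differed in another way. It had 22.6 and 19.25 CPM in siSTAT3, 17.999 and 20.8 CPM in siHMGN5, and 9.22, 8.30, 11.2 and 9.82 CPM in NC. The lentiviral libraries gave 29.1, 27.4 and 32.0 CPM in siSTAT3_HMGN5, 25.9, 24.7 and 25.6 CPM in siSTAT3_Vec, and 12.2, 7.91 and 10.9 CPM in NC_Vec. In both experiments every library with STAT3 or HMGN5 siRNA lay above every control library. The log2 fold changes were 1.12 ± 0.16 for siSTAT3 and 1.01 ± 0.16 for siHMGN5 against NC, and 1.52 ± 0.15 for siSTAT3_HMGN5 and 1.30 ± 0.15 for siSTAT3_Vec against NC_Vec. On log2(TPM + 1), where the added 1 weighs on so low a level, the differences from NC were 0.58 in siSTAT3 and 0.54 in siHMGN5. Against siSTAT3_Vec, siSTAT3_HMGN5 had a log2 fold change of 0.21 ± 0.15 for this transcript, opposite in sign to the 2303-base one. It held under 1% of the listed EEF1A1 reads on average in 5 of the 6 groups and 2.9 ± 0.218% in siSTAT3_HMGN5, so it hardly entered the sum.

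Other abundant transcripts differed in the opposite direction to ENST00000309268 in siSTAT3_HMGN5. ENST00000490569 and ENST00000436459, for which the sources used here give no gene name, had the largest positive differences in CPM of NC_Vec over NC of all transcripts, and they were picked by that difference after the values were seen. Together they had 11179 ± 542 CPM in siSTAT3_HMGN5, 8394 ± 446 CPM in siSTAT3_Vec and 8221 ± 743 CPM in NC_Vec (SD, n = 3 each). Between siSTAT3_HMGN5 and siSTAT3_Vec, ENST00000490569 was higher by 39330 estimated reads per library and ENST00000436459 by 23562, while ENST00000309268 differed by -38416. Whether they share sequence with EEF1A1 could not be read from the sources, and their part in its values was not tested.

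When these 2 transcripts were added to the 3 of EEF1A1, the differences in the lentiviral experiment were smaller or of the other sign. The sum of 5 had 12671, 12326 and 11601 CPM in siSTAT3_HMGN5, 10821, 10953 and 11416 CPM in siSTAT3_Vec, and 10487, 8871 and 9304 CPM in NC_Vec. Every siSTAT3_HMGN5 library was then the higher one, where it had been the lower one for EEF1A1 alone. The log2 fold change was 0.21 ± 0.06 for siSTAT3_Vec against NC_Vec, 0.14 ± 0.06 for siSTAT3_HMGN5 against siSTAT3_Vec and 0.35 ± 0.06 for siSTAT3_HMGN5 against NC_Vec. The lower level in siHMGN5 than in NC remained with 5 transcripts (log2 fold change -0.45 ± 0.07), and each of the 5 but ENST00000316292 had fewer mean reads in siHMGN5.

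**Figure D2:**
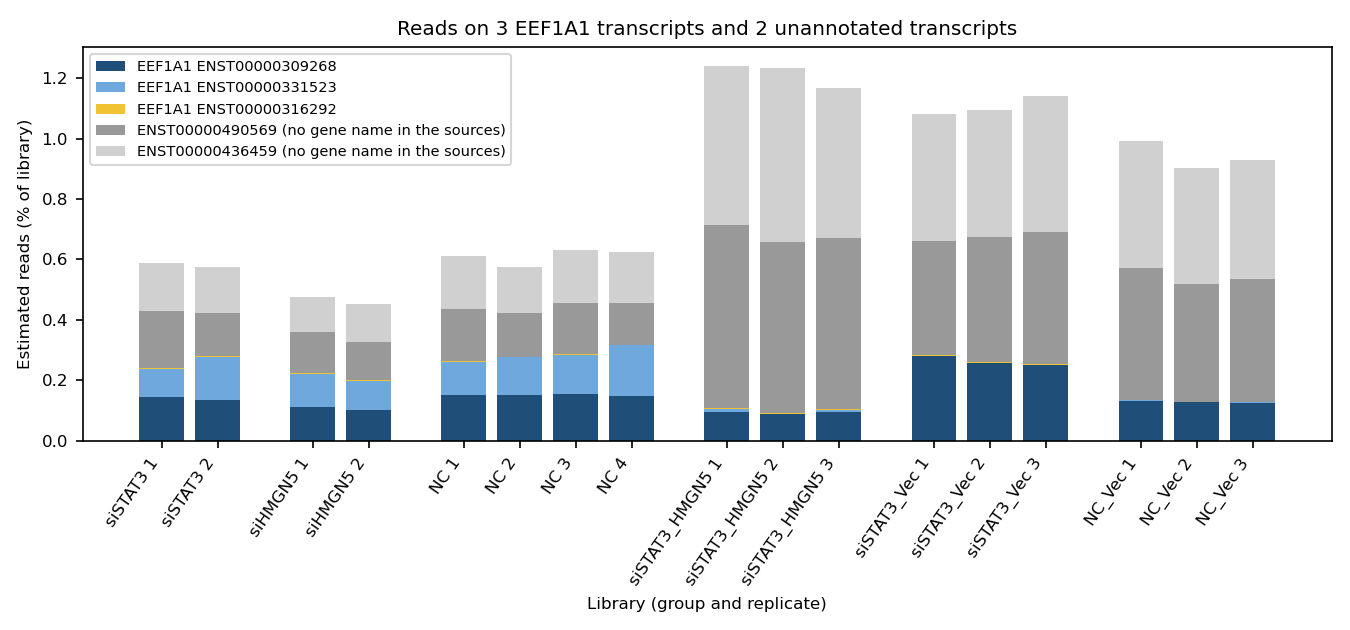
Estimated reads on the 3 EEF1A1 transcripts and on the 2 unannotated transcripts, as a percentage of each library's reads, stacked for the 17 libraries; the siRNA experiment is on the left. The dark blue segment of ENST00000309268 is tallest in siSTAT3_Vec, while the whole stack is tallest in siSTAT3_HMGN5 and lowest in siHMGN5.

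The exchange factor subunits varied less. EEF1B2 had 62.5, 72.4 and 61.9 CPM in siSTAT3_HMGN5, 57.5, 70.8 and 67.4 CPM in siSTAT3_Vec, and 73.5, 60.9 and 58.5 CPM in NC_Vec. The 3 groups overlapped, and the log2 fold changes lay between 0.01 and 0.03, each with an SE of 0.12. In the siRNA experiment it had 63.5 and 54.9 CPM in siSTAT3, 49.5 and 47.0 CPM in siHMGN5, and 61.0, 58.4, 57.6 and 52.1 CPM in NC. Both siHMGN5 libraries were below all others (log2 fold change -0.25 ± 0.10 against NC, and -0.41 on the TPM scale), and siSTAT3 overlapped NC.

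EEF1G, the scaffold subunit, was among the most abundant of the 6. It had 1410 and 1416 CPM in siSTAT3, 1403 and 1363 CPM in siHMGN5, and 1340, 1341, 1118 and 1072 CPM in NC. Both siRNA groups were above every NC library, by 0.22 ± 0.11 and 0.18 ± 0.11 in log2, but the NC libraries themselves split: replicates 3 and 4 were 0.816 times replicates 1 and 2. Against replicates 1 and 2 alone the differences were 0.08 in siSTAT3 and 0.05 in siHMGN5, and against replicates 3 and 4 alone 0.35 and 0.34. On the TPM scale its differences from NC were 0.0022 in siSTAT3 and 0.02 in siHMGN5. In CPM the lentiviral groups overlapped, at 1524, 1381 and 1328 CPM in siSTAT3_HMGN5, 1417, 1477 and 1456 CPM in siSTAT3_Vec, and 1715, 1441 and 1485 CPM in NC_Vec. Their log2 fold changes were -0.13 for siSTAT3_HMGN5 and -0.09 for siSTAT3_Vec against NC_Vec, and -0.04 for siSTAT3_HMGN5 against siSTAT3_Vec, each with an SE of 0.08. In TPM, siSTAT3_HMGN5 (546 to 579) and siSTAT3_Vec (565 to 585) both lay below NC_Vec (607 to 642) without overlap.

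EEF2, the translocase, was graded across the lentiviral groups. It had 2279.5, 2198 and 2129 CPM in siSTAT3_HMGN5, 1912, 1935 and 1885 CPM in siSTAT3_Vec, and 1836, 1569 and 1547 CPM in NC_Vec. No library crossed from 1 group into another. The log2 fold change was 0.42 ± 0.07 for siSTAT3_HMGN5 and 0.21 ± 0.07 for siSTAT3_Vec, each against NC_Vec, and 0.20 ± 0.07 between those infected STAT3 siRNA groups. The siSTAT3_HMGN5 libraries were therefore the highest for EEF2 and the lowest for ENST00000309268 among the lentiviral libraries.

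In the siRNA experiment EEF2 had 1260 and 1261 CPM in siSTAT3, 1051 and 1049 CPM in siHMGN5, and 1056, 1049, 1002 and 1077 CPM in NC. Only siSTAT3 stood apart in CPM, by 0.27 ± 0.06 in log2 against NC, and siHMGN5 overlapped NC (0.0050 ± 0.06). On the TPM scale siSTAT3 had 198 to 204 TPM and NC 189 to 203 TPM, which overlapped, and the difference was 0.04 in log2. On that scale siHMGN5 stood apart instead, with 167 and 181 TPM, below every NC library, and a difference of -0.17 in log2. Which group differed from NC in EEF2 thus depended on the scale. The ratio of EEF2 to EEF1G in TPM, in which library scaling cancels, was 0.387 ± 0.00168 in siSTAT3, 0.33 ± 0.0058 in siHMGN5 (SD, n = 2 each) and 0.378 ± 0.0445 in NC (n = 4). It was 0.677 ± 0.0243 in siSTAT3_HMGN5, 0.571 ± 0.0133 in siSTAT3_Vec and 0.462 ± 0.00912 in NC_Vec (n = 3 each), without overlap among those groups. Part of that spread lies in its denominator, since EEF1G in TPM was lower in both STAT3 siRNA groups than in NC_Vec.

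**Figure D3:**
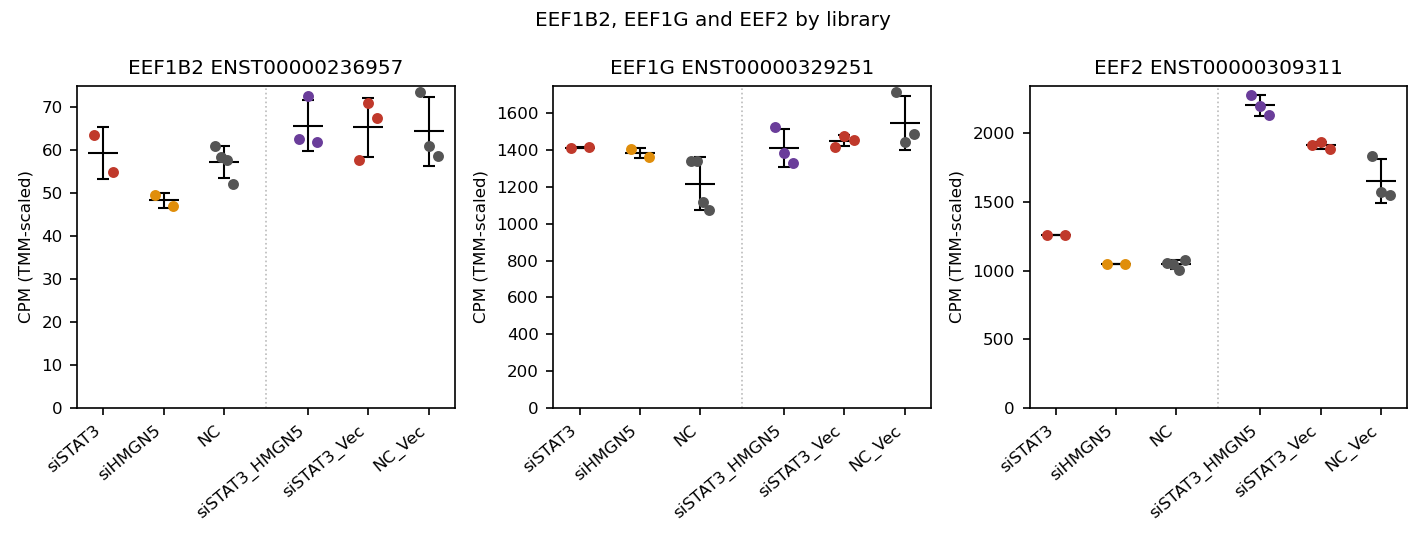
EEF1B2, EEF1G and EEF2 in each library, in TMM-scaled CPM; points are libraries, horizontal bars the group mean and whiskers 1 SD, with the siRNA experiment left of the dotted line. EEF2 is highest in siSTAT3_HMGN5 (2129 to 2279.5 CPM) and lowest among lentiviral groups in NC_Vec, while the lentiviral groups overlap for EEF1B2 and EEF1G.

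Per length, the order of the single transcripts differed between groups. In NC, EEF1G had 522 ± 64.8 TPM, ENST00000331523 had 443 ± 83.1 TPM and ENST00000309268 had 413 ± 11.05 TPM (SD, n = 4). ENST00000331523 overlapped the other transcripts named here, while every EEF1G library lay above every ENST00000309268 library. EEF2 followed with 195 ± 6.26 TPM, EEF1B2 with 52.8 ± 4.14 TPM and ENST00000316292 with 1.27 ± 0.168 TPM, each apart from its neighbours. In siSTAT3_Vec, ENST00000309268 came first with 647 ± 45.2 TPM, above EEF1G with 572 ± 11.1 TPM and EEF2 with 326 ± 7.63 TPM (n = 3), without overlap. In siSTAT3_HMGN5 the same transcript had 231.5 ± 15.97 TPM, below EEF1G with 558 ± 17.98 TPM and EEF2 with 377 ± 2.72 TPM. Summed over its 3 listed transcripts, EEF1A1 had 858 ± 82.7 TPM in NC and 653 ± 45.8 TPM in siSTAT3_Vec. That sum was above EEF1G and EEF2 in both groups, without overlap. In siSTAT3_HMGN5 the sum had 250 ± 22.1 TPM, below both.

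In each comparison the 6 transcripts can be set beside all those tested. Between siSTAT3 and NC, 4 of 6 did not overlap, 3 higher and 1 lower, and 30.9% of tested transcripts did not overlap (16.4% higher, 14.4% lower). Between siHMGN5 and NC, 5 of 6 did not overlap, 2 higher and 3 lower, against 30.6% of tested transcripts (16.3% higher, 14.3% lower). Between siSTAT3 and siHMGN5 the count was 4 of 6, all higher in siSTAT3, against 53.5% (26.5% higher, 27.1% lower). For siSTAT3_Vec against NC_Vec it was 3 of 6, all higher, with 36.3% of tested transcripts (17.9% higher, 18.4% lower). For siSTAT3_HMGN5 it was 4 of 6 against siSTAT3_Vec, with 25.4% (12.3% higher, 13.1% lower), and 4 of 6 against NC_Vec, with 43.0% (21.0% higher, 22.0% lower), in both with 3 higher and 1 lower. The members were chosen on these values, so nothing is read from the counts. With the TPM scale, 2 of 6 did not overlap between siSTAT3 and NC.

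The median log2 fold change over the 6 transcripts was 0.13 for siSTAT3 and -0.12 for siHMGN5 against NC, and 0.26 for siSTAT3 against siHMGN5. It was 0.11 for siSTAT3_HMGN5 against siSTAT3_Vec and 0.22 for siSTAT3_HMGN5 against NC_Vec. For siSTAT3_Vec against NC_Vec it was 0.19 (0.55 without NC_Vec replicate 1, and 0.07 without replicate 2, whose ENST00000331523 was at 0). The middle values there were 0.17 ± 1.26 for ENST00000331523 and 0.21 ± 0.07 for EEF2, so this median is not read. Over all tested transcripts the median was at most 0.0168 in size in these comparisons. Scaling brings that median near 0 and the members were chosen on these values, so nothing is read from the contrast.

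**Figure D4:**
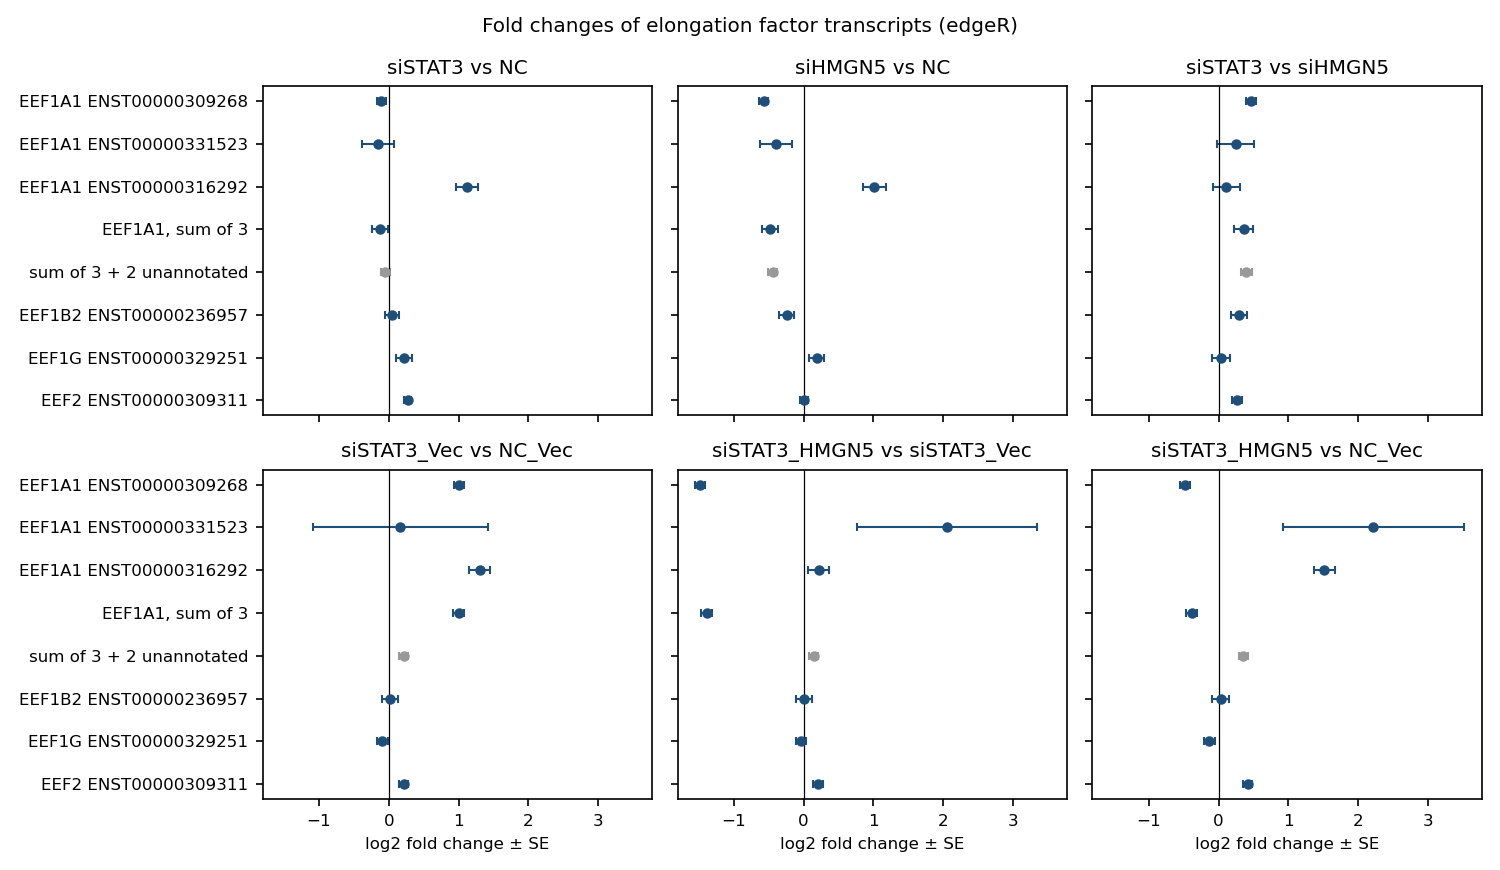
Log2 fold changes with their SE (edgeR) for the 6 transcripts, the EEF1A1 sum and the sum with the 2 unannotated transcripts (grey), for the 6 comparisons; the vertical line marks no difference. ENST00000309268 lies at 1.005 for siSTAT3_Vec against NC_Vec and at -1.48 for siSTAT3_HMGN5 against siSTAT3_Vec, while the grey points of those panels lie at 0.21 and 0.14.

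By the pattern of summed EEF1A1 across 17 libraries, with each value centred on its experiment's mean, the most similar of 15815 transcripts averaging at least 10 CPM over the 17 libraries were ENST00000592003 (r = 0.91) and ENST00000311160 (r = 0.89), the member ENST00000309268 aside (r = 0.98). No source used here names a gene for either. ENST00000592003 averaged 4.68 CPM in siSTAT3, 2.72 CPM in siHMGN5 and 6.10 CPM in NC, all under that minimum, which it passed through the lentiviral groups. It averaged 11.8 CPM in siSTAT3_HMGN5, 29.9 CPM in siSTAT3_Vec and 11.8 CPM in NC_Vec. The other members had r between -0.19 and 0.03. These correlations are descriptions, since the points share libraries and read assignment.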

How the data were processed

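RNA-seq tables of 17 libraries were used. The 2 CUT&Tag samples were not analysed here. Tools listed in the submitters' processing notes, with no role stated, are Bowtie2, CASAVA, HOMER and Salmon 1.4.0, and the builds are hg38 and GRCh38. Each deposited table gives length and effective length in bases, a TPM value and an estimated count per transcript, per the file headers. Deposited estimated counts (expected counts) need not be whole, since a model divides reads among transcripts they could come from: ENST00000331523 came within 0.0015 of a whole number in 2 of 17 libraries and the other 5 members in 0. In the deposited TPM column, counts were divided by effective length and brought to a fixed total.

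Counts were rounded, and each experiment was fitted apart with edgeR 4.0.16 in R 4.3.3 (filterByExpr, TMM, glmQLFit on group means, glmQLFTest). SE was obtained by dividing the log2 fold change by the root of the F statistic. For summed EEF1A1 the 3 rows were replaced by their sum. The code was tested on simulated data. Alternatives used DESeq2 1.42.0, limma 3.58.1 (voom), other scalings and filters, log2(TPM + 1), a replicate block and leaving out each library. The members and lists were chosen with earlier results of these data known. Transcripts were named by rule: the members, the EEF1A1 sum and the 2 most correlated transcripts averaging 10 CPM or more (on log2(CPM + 1)); the 2 unannotated ones were added after values were seen. A list of 23 further elongation factor genes matched 0 transcripts, because IDs are not paired with names in the sources used here; gene names of the 6 members come with the member list. Same-numbered replicates did not deviate together (correlations from -0.0887 to 0.052), so no pairing was used. No pair of libraries of the same group agreed within sampling noise.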

Additional observations from a re-analysis of the deposited data

Results flagged for a closer look

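The STAT3 siRNA difference of ENST00000309268 had opposite signs in the 2 experiments, and it was small in the siRNA experiment. Its log2 fold change was -0.11 ± 0.06 (SE) in siSTAT3 against NC, where both siSTAT3 libraries lay just below all 4 NC libraries. In siSTAT3_Vec against NC_Vec it was 1.005 ± 0.07, and all 3 siSTAT3_Vec libraries lay above all 3 NC_Vec libraries. The difference between these effects was not tested, and the second pair of groups was also infected with empty vector. ENST00000309268 held 53.5% and 54.1% of the listed EEF1A1 reads in NC and siSTAT3, against 98.4% and 98.6% in NC_Vec and siSTAT3_Vec. For the EEF1A1 sum with the 2 unannotated transcripts added, the log2 fold changes were -0.05 ± 0.07 and 0.21 ± 0.06.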

How the results depend on the processing

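Of the alternative values of summed EEF1A1, transcript shares, medians and counts, 260 were labelled within the spread, 11 moved and 3 changed in sign. A changed sign was labelled only where the main value was larger than the spread, so further values also had the other sign. Counts were judged by their ratio to the main count. On log2(TPM + 1), summed EEF1A1 was -0.63 for siHMGN5 and -0.34 for siSTAT3 against NC, the median of the 6 transcripts was -0.29 and -0.086 (a changed sign) in those comparisons and 0.34 for siSTAT3_Vec against NC_Vec, and 2 transcripts did not overlap between siSTAT3 and NC. That last median was 0.61 with limma-voom and 0.56 with the replicate block, and 0.074 to 0.55 when each library was left out. The cause was not tested. The main value of that median rests in part on ENST00000331523, whose lentiviral fold changes are not read. The replicate block changed no other such value beyond the spread. The share of EEF1A1 reads on ENST00000309268 differed between siSTAT3 and NC by -5.52 to 6.71 points when each library was left out. Adding the 2 unannotated transcripts, chosen after seeing the data, gave 0.21 for siSTAT3_Vec against NC_Vec, and 0.14 and 0.35, both of changed sign, for siSTAT3_HMGN5 against siSTAT3_Vec and NC_Vec. For single transcripts, EEF1G in siSTAT3 against siHMGN5 was -0.040 with library totals and -0.022 with TPM, both of changed sign, 32 other values moved, and 518 stayed within the spread. The 2 libraries of siSTAT3 and of siHMGN5 limit what their comparisons can show.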
